A study of Mus musculus with 36 samples.

Results

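Cells that take up serotonin, dopamine or noradrenaline can break them down through the monoamine oxidases of the outer mitochondrial membrane, which turn the amine into an aldehyde. Aldehyde dehydrogenases then oxidise that aldehyde to an acid such as hydroxyindoleacetic acid. Melatonin, which is made from serotonin, is mainly hydroxylated by cytochrome P450 enzymes of the CYP1 family, and the product is conjugated by sulfotransferases and glucuronosyltransferases. The genes described here are 7 enzymes of these steps: Maoa and Maob (monoamine oxidases A and B), Aldh2 and Aldh3a1 (aldehyde dehydrogenases), Cyp1a1 and Cyp1b1 (cytochromes P450) and Sult1a1 (a phenol sulfotransferase). They were chosen by name, and all 7 of them are among the 24411 genes in the expression files.

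The genes were measured in cultured mesenchymal stem cells (MSCs) of 4 tissues: femoral bone marrow (fBM-MSCs), vertebral bone marrow (vBM-MSCs), adipose tissue (A-MSCs) and lung (P-MSCs). The study took the tissues from the same 3 C57BL6/J mice, aged 8 weeks, and compared no drug or genotype. Marrow cells were freed by crushing the bone, whereas adipose and lung tissue was digested with collagenase, so that marrow origin and the way of isolation cannot be told apart. All cultures were seeded on collagen in MesenCult medium with MesenPure and a Rock inhibitor and used within 3 passages, so the values describe adherent cultures and not the cells as they are in the tissue. RNA-seq used Smart-seq2, which copies polyadenylated RNA into full-length cDNA without strand information or molecular identifiers. ATAC-seq, in which a transposase inserts adaptors into open chromatin, gave 1 pooled peak list per tissue.

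The 11 RNA-seq libraries comprised 2 from vBM-MSCs and 3 from each of the other tissues, and the third vBM-MSC replicate was not analysed here. Their summed expected counts ranged from 19569650 to 40517739. Levels are given in TPM, the share of transcripts scaled for their length, so that genes can be set against each other. The markers that the study used to define MSCs (Itgb1, Cd44, Ly6a and Vcam1) summed to between 983 and 2336 TPM in every library. Ptprc, the pan-leukocyte marker, was at most 0.35 TPM, whereas Cd34, which MSCs should lack, reached 79.2 and 72.7 TPM in fBM-MSC replicates 1 and 2. The A-MSC libraries carried transcripts of mesothelial cells, the lining of fat depots: a list of 6 mesothelial markers summed to 66.5 to 69.2 TPM there, with Wt1 between 10.6 and 14.9 TPM in the A-MSCs and at 0 in all other libraries. In the P-MSCs the list summed to 54.0 to 63.1 TPM, of which Krt19 made up 51.7 to 59.8 TPM, with Wt1 and Lrrn4 at 0. In the marrow MSCs it summed to at most 12.3 TPM. The A-MSCs also had 11.6 to 27.5 TPM over 6 epithelial markers, mostly Krt18, against at most 1.32 TPM elsewhere. Their 5 endothelial markers summed to 3.4 to 55.3 TPM (Emcn at 49.5 TPM in replicate 1) and their 5 adipocyte markers to 42.8 to 158 TPM (Fabp4 at 140 TPM in replicate 3), which overlapped the marrow MSCs, where they summed to as much as 64.2 TPM, and exceeded the P-MSCs at 2.68 to 3.84 TPM. A list of 8 macrophage markers summed to 23.5 to 42.4 TPM in the marrow MSCs and to 9.25 to 21.1 TPM in the A-MSCs and P-MSCs. Most of it in the marrow MSCs was Lyz2, at 19.8 to 38.6 TPM, with Adgre1, C1qa, C1qb and Itgam at 0 there, while Csf1r was at most 1.16 TPM in the marrow MSCs and 5.46 to 6.56 TPM in the A-MSCs and Cd14 reached its highest level, 5.6 TPM, in the P-MSCs. The part of these cells in the values below was not tested, and in bulk libraries fewer cells of a type and less RNA per cell cannot be told apart.

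Maoa and Maob lie tail to tail on chromosome X (GRCm38), and 21468 bases separate the ends of their transcripts. Maoa spans X:16619698-16687812 on the plus strand and Maob spans X:16709281-16817366 on the minus strand, each with 15 exons. Sult1a1 lies at 7:126672865-126676418 (minus strand, 8 exons) and Aldh2 at 5:121566027-121593824 (minus strand). Aldh3a1 lies at 11:61208742-61218418 (plus strand, 11 exons), Cyp1a1 at 9:57687928-57703824 (plus strand, 7 exons) and Cyp1b1 at 17:79706940-79715061 (minus strand). Cyp1a1 has a second curated transcript that starts further downstream.

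Cyp1a1, Cyp1b1 and Aldh3a1 are textbook targets of the aryl hydrocarbon receptor, a ligand-activated transcription factor that binds a short element with the core GCGTG. The RefSeq promoter table (GRCm38.p6) gave windows of 250 bases before and 50 bases after a transcription start for 4 of the 7 genes: Maoa, Sult1a1, Cyp1a1 and Cyp1b1. Maob, Aldh2 and Aldh3a1 had no entry. The core was searched on both strands, where it reads CACGC on the minus strand. Of all 32851 promoter windows of that length, 32.4% held at least 1 such core, at a mean of 0.49 per window. The windows of Cyp1a1 and Cyp1b1 each held 1, and those of Maoa and Sult1a1 held none. The 250 upstream bases of 3 of them follow, 5′ to 3′ along the gene, because they set the P450 genes beside a sulfotransferase that was detected in marrow MSCs alone, with the core in capitals. The Cyp1a1 window belongs to the downstream start, at chr9:57697363-57697612 on the plus strand, and its core begins 54 bases before that start. The Cyp1b1 window is chr17:79715062-79715311 on the minus strand, with the core beginning 76 bases before the start, and the Sult1a1 window is chr7:126676419-126676668 on the minus strand.
Cyp1a1 upstream: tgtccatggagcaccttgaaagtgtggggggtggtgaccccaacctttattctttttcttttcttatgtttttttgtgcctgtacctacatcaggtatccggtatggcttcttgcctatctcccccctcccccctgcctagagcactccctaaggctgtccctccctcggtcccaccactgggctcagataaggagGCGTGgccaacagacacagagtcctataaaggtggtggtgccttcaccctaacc
Cyp1b1 upstream: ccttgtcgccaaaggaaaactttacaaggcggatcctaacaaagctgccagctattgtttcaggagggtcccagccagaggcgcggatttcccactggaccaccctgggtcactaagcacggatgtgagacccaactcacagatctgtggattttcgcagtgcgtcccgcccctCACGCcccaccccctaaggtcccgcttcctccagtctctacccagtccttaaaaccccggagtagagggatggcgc
Sult1a1 upstream: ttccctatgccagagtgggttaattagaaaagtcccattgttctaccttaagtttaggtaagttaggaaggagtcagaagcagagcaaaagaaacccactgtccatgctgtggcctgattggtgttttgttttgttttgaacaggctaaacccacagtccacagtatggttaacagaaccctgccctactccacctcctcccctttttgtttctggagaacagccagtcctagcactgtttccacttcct

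Further upstream of Cyp1b1, all 4 ATAC-seq lists held a strong summit. The 201 bases around the fBM-MSC summit, at chr17:79715749-79715949 on the minus strand, are shown because this was the highest promoter summit of any of the genes. It held 3 cores, beginning at −873, −854 and −694 bases from the start. Of 64300 windows of the same length around fBM-MSC summits, 20.3% held at least 1 core and 1.2% held 3 or more. Those summits lie anywhere in the genome, and of the 32851 promoter windows, which are 300 bases long, 3.9% held 3 or more. A match to these letters describes the sequence and does not show binding of the receptor.
Cyp1b1 summit: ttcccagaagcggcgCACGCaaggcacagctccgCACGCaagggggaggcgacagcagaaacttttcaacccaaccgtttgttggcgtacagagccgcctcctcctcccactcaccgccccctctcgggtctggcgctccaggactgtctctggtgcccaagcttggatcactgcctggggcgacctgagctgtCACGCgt

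**Figure D1:**
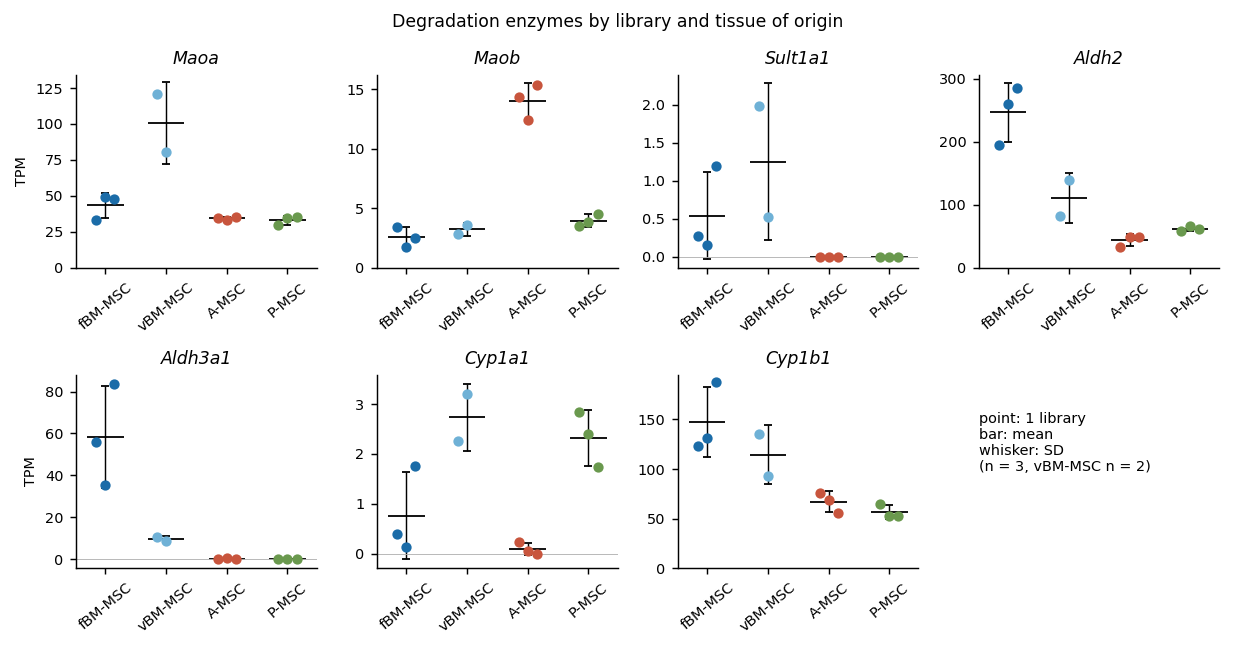
TPM of the 7 enzymes (y axis, from 0 on its own scale in each panel) in the 11 libraries by tissue of origin (x axis). Points are libraries, bars are means and whiskers are SD. Maob was between 12.4 and 15.4 TPM in the A-MSCs and at most 4.55 TPM elsewhere, and Aldh3a1 was at least 8.68 TPM in the marrow MSCs and at most 0.38 TPM in the A-MSCs and P-MSCs.

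The expression of each gene was compared between tissues with edgeR's quasi-likelihood test on the rounded expected counts, in a single fit with all 11 libraries, at a Benjamini-Hochberg adjusted p under 0.05 over 12509 genes. A gene entered the test at a CPM (its counts scaled to library size) of at least 1 in 2 or more libraries. Of the 7 enzymes, 6 entered it, and Sult1a1 did not. All 6 differed among the 4 tissues, where 60.6% of all genes tested did so, and without A-MSC replicate 2 the call of Cyp1a1 was lost. The 6 pairwise comparisons share libraries and are given side by side.

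Maoa encodes the monoamine oxidase that prefers serotonin and noradrenaline as substrates. It had 33.4, 49.0 and 47.7 TPM in the fBM-MSCs, 121 and 80.5 TPM in the vBM-MSCs, 34.7, 32.9 and 35.2 TPM in the A-MSCs, and 29.4, 34.5 and 35.0 TPM in the P-MSCs. Both vBM-MSC libraries stood above all 9 others, whose values overlapped between tissues. Maoa was therefore highest in the vBM-MSCs at a mean of 101 ± 28.6 TPM (SD, n = 2), followed by the fBM-MSCs at 43.4 ± 8.67 TPM (SD, n = 3), the A-MSCs at 34.3 ± 1.24 TPM (SD, n = 3) and the P-MSCs at 33.0 ± 3.11 TPM (SD, n = 3). Against the vBM-MSCs, the fBM-MSCs had 2.3-fold less Maoa (−1.20 on the log2 scale, SE 0.20, edgeR adjusted p = 0.00335), a call lost when only these tissues were fitted (edgeR adjusted p = 0.0678). The vBM-MSCs exceeded the A-MSCs by 1.46 on the log2 scale (SE 0.20, edgeR adjusted p = 0.000487) and the P-MSCs by 1.71 (SE 0.20, edgeR adjusted p = 6.93e-05). Among the lower 3 tissues, fBM-MSCs and A-MSCs differed by 0.26 on the log2 scale (SE 0.18, edgeR adjusted p = 0.272), and A-MSCs and P-MSCs by 0.25 (SE 0.18, edgeR adjusted p = 0.33). The fBM-MSCs passed the test against the P-MSCs (log2 fold change 0.51, SE 0.18, edgeR adjusted p = 0.0378), although their ranges overlapped, and that call was lost in 11 of 18 alternative fits.

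Maob encodes the isoform that prefers phenylethylamine. Its levels were 3.41, 1.76 and 2.50 TPM in the fBM-MSCs, 2.85 and 3.62 TPM in the vBM-MSCs, 14.3, 12.4 and 15.4 TPM in the A-MSCs, and 3.47, 3.81 and 4.55 TPM in the P-MSCs. All 3 A-MSC libraries stood above the other 8. The A-MSCs exceeded the fBM-MSCs 5.77-fold, the vBM-MSCs 4.72-fold and the P-MSCs 4.08-fold, and the log2 fold change against the P-MSCs was 2.03 (SE 0.26, edgeR adjusted p = 0.000274). No pair among the other 3 tissues passed the test, the largest difference being −0.50 on the log2 scale between fBM-MSCs and P-MSCs (SE 0.26, edgeR adjusted p = 0.131). Without fBM-MSC replicate 1, the library with the fewest counts, that pair was called (−0.78, edgeR adjusted p = 0.0246). With all libraries, limma on log2(TPM + 0.1) called it too (−0.65, limma adjusted p = 0.0485).

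Maoa and Maob thus had different tissues at the top, and their proportion differed accordingly. Maoa made up 70.8%, 72.6% and 69.6% of their summed TPM in the A-MSCs and between 88.5% and 97.7% in the 8 other libraries. On the scale of log2(TPM + 1), Maoa exceeded Maob by 1.24 ± 0.0963 in the A-MSCs (SD, n = 3), 2.78 ± 0.0943 in the P-MSCs (SD, n = 3), 3.65 ± 0.622 in the fBM-MSCs (SD, n = 3) and 4.56 ± 0.597 in the vBM-MSCs (SD, n = 2). Maoa was the more abundant of the pair in every library. This proportion was not tested.

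Aldh2 encodes the mitochondrial aldehyde dehydrogenase. It was the most abundant of the 7 genes in the fBM-MSCs, with 194, 260 and 285 TPM, against 82.2 and 139 TPM in the vBM-MSCs. The A-MSCs had 33.0, 49.6 and 49.5 TPM and the P-MSCs 58.4, 66.8 and 61.4 TPM. No library of a tissue overlapped with another tissue. The fBM-MSCs exceeded the vBM-MSCs 2.35-fold (log2 fold change 1.23, SE 0.22, edgeR adjusted p = 0.0053), the P-MSCs 4.29-fold (2.10, SE 0.20, edgeR adjusted p = 9.45e-06) and the A-MSCs 5.27-fold (2.40, SE 0.20, edgeR adjusted p = 7.84e-06). The vBM-MSCs exceeded the P-MSCs by 0.87 on the log2 scale (SE 0.21, edgeR adjusted p = 0.00733). Each of these vBM-MSC calls was lost without 1 of its 2 libraries: without vBM-MSC replicate 1 the difference from the fBM-MSCs was 0.97 (edgeR adjusted p = 0.0589), and without replicate 2 that from the P-MSCs was 0.56 (edgeR adjusted p = 0.0879). The A-MSCs were below the P-MSCs in every library, but this difference did not pass the test (log2 fold change −0.30, SE 0.19, edgeR adjusted p = 0.267).

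Aldh3a1 encodes a dehydrogenase that acts on aromatic and medium-chain aldehydes and is best known from the cornea. Its counts were 1016, 1058 and 2971 in the fBM-MSCs and 290 and 284 in the vBM-MSCs, but 1, 14 and 0 in the A-MSCs and 7, 5 and 0 in the P-MSCs. In TPM these were 55.9, 35.5 and 83.8, then 10.6 and 8.68, then 0.03, 0.38 and 0, then 0.18, 0.16 and 0. The transcript was plain in every marrow library and at the limit of detection in the A-MSCs and P-MSCs. The fBM-MSCs exceeded the vBM-MSCs 6.26-fold (log2 fold change 2.65, SE 0.60, edgeR adjusted p = 0.0157). That call was lost without vBM-MSC replicate 1 (2.90, edgeR adjusted p = 0.0693), without vBM-MSC replicate 2 (2.42, edgeR adjusted p = 0.057) and in DESeq2 (adjusted p = 0.158). The vBM-MSCs exceeded the A-MSCs by 5.90 on the log2 scale (SE 0.75, edgeR adjusted p = 0.000286) and the P-MSCs by 6.38 (SE 0.77, edgeR adjusted p = 8.03e-05). A-MSC replicate 2 held 14 of the A-MSC counts, and without it the vBM-MSCs exceeded the A-MSCs by 8.84 (edgeR adjusted p = 0.000277). The A-MSCs and P-MSCs, with 15 and 12 counts in all, could not be ordered (log2 fold change 0.47, SE 1.11, edgeR adjusted p = 0.778), and the sign turned without A-MSC replicate 2 (−2.46).

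Cyp1b1, a P450 enzyme that also metabolises oestrogens and retinoids, was expressed in all 4 tissues. It had 124, 131 and 188 TPM in the fBM-MSCs, 135 and 93.3 TPM in the vBM-MSCs, 76.2, 69.2 and 55.5 TPM in the A-MSCs, and 64.2, 52.8 and 52.2 TPM in the P-MSCs. Every marrow library stood above every A-MSC and P-MSC library, while the ranges overlapped within the marrow pair and within the other pair. The fBM-MSCs exceeded the A-MSCs by 1.07 on the log2 scale (SE 0.21, edgeR adjusted p = 0.00188) and the P-MSCs by 1.51 (SE 0.21, edgeR adjusted p = 0.000145). The vBM-MSCs exceeded the P-MSCs by 1.12 (SE 0.23, edgeR adjusted p = 0.00256) and the A-MSCs by 0.68 (SE 0.23, edgeR adjusted p = 0.0477), the latter a call that was lost in 11 of 18 alternative fits. Neither the marrow pair nor the A-MSC and P-MSC pair passed the test, with edgeR adjusted p = 0.304 and 0.133.

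Cyp1a1, its close relative, was expressed far less and in a different order. It had 0.40, 0.13 and 1.76 TPM in the fBM-MSCs, 2.25 and 3.21 TPM in the vBM-MSCs, 0.23, 0.06 and 0 TPM in the A-MSCs, and 2.84, 2.39 and 1.73 TPM in the P-MSCs. The A-MSC values rest on 12, 4 and 0 counts, whereas the P-MSCs had 193, 125 and 101. The A-MSCs were 21.3-fold below the P-MSCs (−4.41 on the log2 scale, SE 1.10, edgeR adjusted p = 0.0109), and the vBM-MSCs exceeded the A-MSCs by 4.71 (SE 1.15, edgeR adjusted p = 0.0118). The sizes of both depend on the few A-MSC counts: they were −5.94 and 6.24 without A-MSC replicate 1, and −3.82 and 4.12 without A-MSC replicate 3. The vBM-MSCs and P-MSCs did not pass the test against each other (1.23-fold, edgeR adjusted p = 0.84). Among the fBM-MSCs, replicate 3 had 110 counts and the other two 13 and 7. The fBM-MSC call against the A-MSCs (log2 fold change 2.97, SE 1.06, edgeR adjusted p = 0.0434) was lost in 11 of 17 alternative fits, and without fBM-MSC replicate 3 it was 1.39 (edgeR adjusted p = 0.297). Without that library, the fBM-MSCs were called lower than the P-MSCs (−3.02, edgeR adjusted p = 0.0266), a difference of −1.45 (SE 0.93, edgeR adjusted p = 0.221) with it.

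Sult1a1, which conjugates phenols and hydroxylated melatonin with sulfate, was detected in all 5 marrow libraries and in none of the 6 others. The counts were 4, 4 and 35 in the fBM-MSCs and 45 and 14 in the vBM-MSCs, or 0.27, 0.16 and 1.20 TPM and 1.98 and 0.52 TPM. Replicate 3 of the fBM-MSCs was again the highest of its tissue. Because a count of 0 still allows up to 3 counts over the group, the vBM-MSCs were at least 32.6-fold higher than the A-MSCs and at least 31.6-fold higher than the P-MSCs in CPM. The fBM-MSCs were at least 17.7-fold and 17.2-fold higher, respectively. Single libraries set these bounds: without fBM-MSC replicate 3, a setting chosen after seeing the data, they were 5.67-fold and 5.5-fold, and without vBM-MSC replicate 1 the vBM-MSC bounds were 14.2-fold and 13.8-fold. These bounds cover counting error only. Fitted without the filter on low counts, Sult1a1 differed among the 4 tissues with an edgeR adjusted p = 0.00925, where 43.0% of 17496 genes did so.

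**Figure D2:**
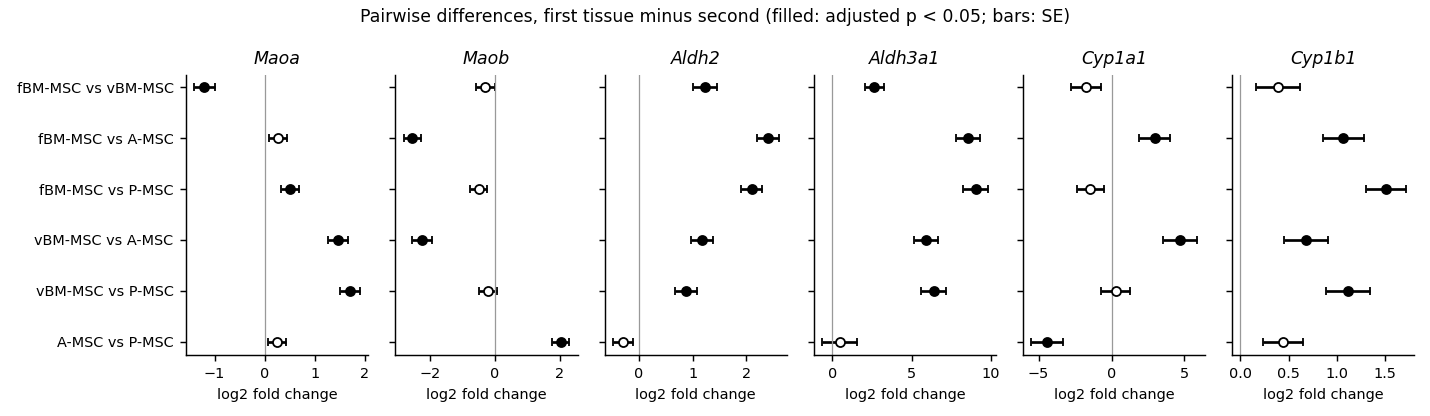
Log2 fold change of the 6 enzymes tested (x axis, a separate scale for each gene) in the 6 pairs of tissues (y axis), first tissue minus second. Filled points passed edgeR's test at an adjusted p under 0.05, and bars are SE. Aldh2, Aldh3a1 and Cyp1b1 were higher in both marrow tissues than in A-MSCs and P-MSCs, whereas Maob passed in the 3 pairs that hold the A-MSCs.

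By pair, 5 of the 6 genes tested were called between fBM-MSCs and A-MSCs, where 40.9% of all genes were, and all 6 between vBM-MSCs and A-MSCs, where 25.6% were. Between fBM-MSCs and P-MSCs 4 were called, against 47.7% of all genes, and between vBM-MSCs and P-MSCs 4, against 38.7%. The 2 marrow tissues differed in 3 of the 6 (Aldh2, Aldh3a1 and Maoa), against 12.8% of all genes, and A-MSCs and P-MSCs in 2 (Maob and Cyp1a1), against 30.9%. Aldh2, Aldh3a1 and Cyp1b1 were higher in the marrow tissue in all 4 pairs of a marrow with another tissue. These pairs share libraries, and the share of all genes with that pattern was not counted. Since a gene had to reach the filter in 2 libraries, the 6 include genes that passed it through their highest tissues alone. Aldh3a1 was at a CPM of 1 or more in 5 libraries and Cyp1a1 in 6.

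The study asked which genes set the MSCs of each tissue apart and took up the degradation of melatonin and serotonin for the A-MSCs, a theme chosen on these same cultures. The A-MSCs were therefore also compared with the mean of the 3 other tissues, which is no independent evidence of a direction. Of the 6 genes tested, 5 were called, where 29.9% of all genes were. Only Maob was higher in the A-MSCs, 4.81-fold (log2 fold change 2.27, SE 0.20, edgeR adjusted p = 1.56e-05), where 16.0% of all genes were higher. Aldh3a1, Cyp1a1, Aldh2 and Maoa were lower, where 13.9% of all genes were, with log2 fold changes of −4.66 (SE 0.78), −4.03 (SE 1.02), −1.29 (SE 0.17) and −0.49 (SE 0.16). Cyp1b1 had a log2 fold change of −0.44 (SE 0.18, edgeR adjusted p = 0.0817). The median over the 6 was −0.89, and over all genes tested it was 0.00. The mean of the others for Maoa includes the vBM-MSCs, the only tissue whose pair with the A-MSCs was called for this gene, and the Maoa call (edgeR adjusted p = 0.0343) was lost in 6 of 17 alternative fits, each without a library of the fBM-MSCs, A-MSCs or P-MSCs. Without A-MSC replicate 1, Cyp1a1 moved to −5.56 (edgeR adjusted p = 0.013), and without A-MSC replicate 3 to −3.44 (edgeR adjusted p = 0.0372). Without A-MSC replicate 2, Aldh3a1 moved to −7.60 (edgeR adjusted p = 0.000794) and Cyp1a1 lost its call too (−3.78, edgeR adjusted p = 0.054), which left Maob, Aldh2 and Aldh3a1, 3 of the 6. Cyp1b1 was called in DESeq2 (adjusted p = 0.0364), in both limma fits and without vBM-MSC replicate 2 (−0.54, edgeR adjusted p = 0.0243).

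The other enzymes of these steps were read from 7 lists with 47 further genes, chosen with earlier results of these data known, of which 25 entered the test. Of these 25, 7 were higher in the A-MSCs than the mean of the others, where 16.0% of all genes were, and 3 lower, where 13.9% were. Their median log2 fold change was −0.06, and calls of the genes that follow refer to that comparison unless a pair of tissues is named.

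Among the 11 aldehyde dehydrogenase genes, 4 were higher and 2 lower in the A-MSCs, beside the 16.0% and 13.9% of all genes. Aldh1a3, an enzyme of retinoic acid synthesis, had a mean of 64.6 ± 13.0 TPM in the A-MSCs (SD, n = 3) and means between 0.547 and 5.79 TPM elsewhere (5.76 on the log2 scale, SE 0.22, edgeR adjusted p = 7.19e-08). Aldh1a2, another enzyme of that step, had 22.8 ± 1.23 TPM (SD, n = 3), but the P-MSCs reached 19.6 ± 2.09 TPM (SD, n = 3) and the marrow MSCs means of at most 3.68 TPM. The mitochondrial Aldh1b1 was higher by 1.72 on the log2 scale (SE 0.29, edgeR adjusted p = 0.00128), at a mean of 5.01 TPM. Its mean was 3.17 TPM in the fBM-MSCs, and the difference between these tissues alone was not called (edgeR adjusted p = 0.128). Aldh1a1 passed narrowly (1.04, SE 0.36, edgeR adjusted p = 0.0456) and lost the call in 11 of 17 alternative fits. The vBM-MSCs had 114 TPM against 85.2 TPM in the A-MSCs, a difference that did not pass the test (edgeR adjusted p = 0.675). Reads of Aldh1a1 can be shared with its near copy Aldh1a7, and RSEM splits them by its model.

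Set against the summed TPM of the 11 genes, Aldh2 made up 46.3%, 55.2% and 57.1% in the fBM-MSCs and 25.1% and 39.5% in the vBM-MSCs. It made up 10.6%, 16.7% and 16.5% in the A-MSCs and 32.1%, 34.1% and 32.4% in the P-MSCs. The sum itself ranged from 419 to 499 TPM in the fBM-MSCs, from 327 to 352 in the vBM-MSCs, from 298 to 310 in the A-MSCs and from 182 to 196 in the P-MSCs. Aldh3a1 contributed 7.54% to 16.8% in the fBM-MSCs and at most 0.128% in the A-MSCs and P-MSCs. Aldh2 was the most abundant of the 11 in the fBM-MSCs and P-MSCs, and Aldh1a1 in the A-MSCs by mean TPM, followed by Aldh1a3 and Aldh2. In the vBM-MSCs the means of Aldh1a1 and Aldh2, 114 and 111 TPM, were closer than the spread between the libraries.

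**Figure D3:**
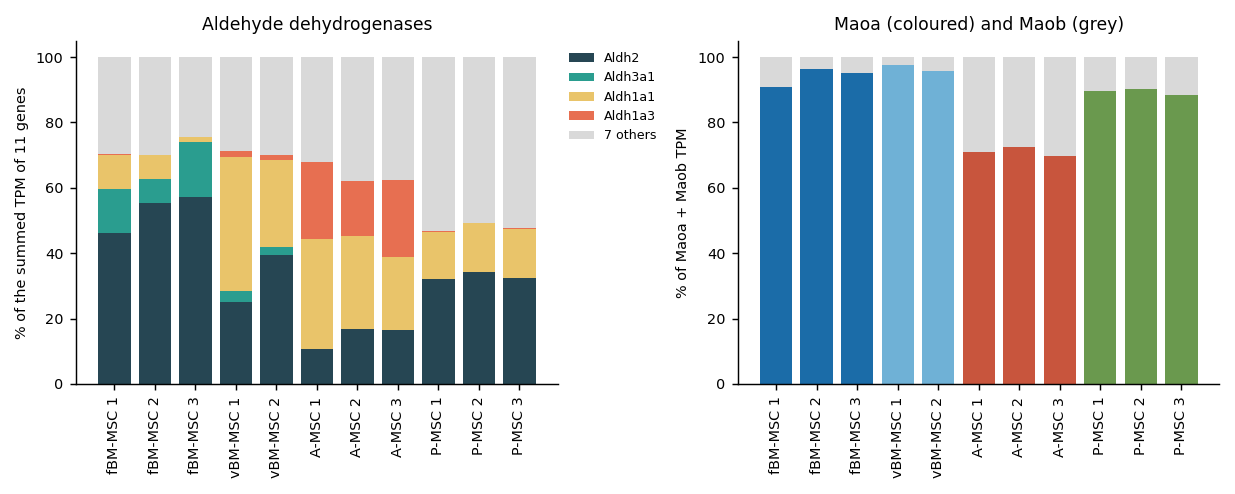
Left, share of 4 aldehyde dehydrogenases in the summed TPM of the 11 listed (y axis, %) for each library (x axis). Right, share of Maoa and Maob in their summed TPM (y axis, %). Aldh2 fell from 46.3% or more in each fBM-MSC library to at most 16.7% in the A-MSCs, and Maoa fell to at most 72.6% there, against at least 88.5% in all other libraries.

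Of the alcohol and aldehyde reductases, Adh7, a retinol-oxidising alcohol dehydrogenase, was the only 1 of 5 tested that was called in A-MSCs against the mean of the others, where 29.9% of all genes were. Among the 4 tissues 4 of the 5 differed, where 60.6% of all genes did. Adh7 had a mean of 28.3 TPM in the fBM-MSCs, 11.5 TPM in the vBM-MSCs, 9.55 TPM in the P-MSCs and 0.65 TPM in the A-MSCs (log2 fold change −4.41, SE 0.50, edgeR adjusted p = 0.000104), and −5.38 without A-MSC replicate 1.

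In the conjugating families, Sult4a1, a sulfotransferase of the nervous system without a settled substrate, was lower in the A-MSCs, with a mean of 1.16 TPM against 8.88, 9.98 and 13.6 TPM in the fBM-MSCs, vBM-MSCs and P-MSCs (log2 fold change −3.08, SE 0.28, edgeR adjusted p = 2.19e-05). Papss1, which makes the sulfate donor and falls outside the rule for named genes, was lower by 0.31 on the log2 scale at 18.3 TPM (edgeR adjusted p = 0.0357). Of the pairs with the A-MSCs, only that with the P-MSCs was called for Papss1 (edgeR adjusted p = 0.0375). Of the 10 genes in that list only 3 were expressed well enough to be tested, and 3 were at 0 in every library. Ugt1a7c and Ugt1a6b, glucuronosyltransferases, were higher in the A-MSCs, with 42.1 ± 4.79 TPM (SD, n = 3) and 12.4 ± 2.53 TPM (SD, n = 3) where no other tissue averaged above 14.3 and 5.14 TPM (2.58 and 1.60 on the log2 scale, SE 0.14 and 0.30). Genes of the Ugt1a cluster share their last exons, so the division of reads among them is uncertain.

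Among the melatonin-oxidising P450 genes, Cyp1a2, the main hepatic enzyme of this step, was at 0 in all 11 libraries. Cyp2d22 was higher in the A-MSCs at 1.66 ± 1.02 TPM (SD, n = 3), where no other tissue averaged above 0.325 TPM (3.99 on the log2 scale, SE 0.75, edgeR adjusted p = 0.00258), and by 5.22 without fBM-MSC replicate 2. The difference of Cyp2d22 from the vBM-MSCs alone was not called (edgeR adjusted p = 0.133). Outside the A-MSCs it was at most 0.34 TPM in any library, so it entered the test through the A-MSCs, and its call is no independent evidence. It is counted among the listed genes higher in the A-MSCs. Por, the reductase that supplies electrons to these enzymes, had tissue means of 72.5 to 122 TPM. It did not pass the test in A-MSCs against the mean of the others (edgeR adjusted p = 0.303), but it was lower than in the P-MSCs in the A-MSCs (−0.56 on the log2 scale, SE 0.18, edgeR adjusted p = 0.0324) and in the fBM-MSCs (−0.57, SE 0.18, edgeR adjusted p = 0.0185). Of the kynuric branch, which opens the indole ring, only Afmid could be tested. It was not called in A-MSCs against the mean of the others (edgeR adjusted p = 0.683), and it was lower in the fBM-MSCs than in the P-MSCs (−1.65 on the log2 scale, SE 0.48, edgeR adjusted p = 0.0149).

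Ahr, the aryl hydrocarbon receptor itself, was highest in the vBM-MSCs. It had a mean of 8.33 ± 1.06 TPM in the fBM-MSCs (SD, n = 3), 17.9 ± 4.40 TPM in the vBM-MSCs (SD, n = 2), 3.56 ± 0.307 TPM in the A-MSCs (SD, n = 3) and 4.71 ± 0.898 TPM in the P-MSCs (SD, n = 3). In the A-MSCs it was lower than the mean of the others by 1.20 on the log2 scale (SE 0.18, edgeR adjusted p = 0.000582), but it was not called against the P-MSCs (−0.21, edgeR adjusted p = 0.448). Its target Tiparp was lower by 0.59 (SE 0.18, edgeR adjusted p = 0.0292), with 11.5 TPM in the A-MSCs against 15.4, 27.6 and 15.4 TPM in the fBM-MSCs, vBM-MSCs and P-MSCs. Of the pairs with the A-MSCs, only that with the vBM-MSCs was called for Tiparp (edgeR adjusted p = 0.00372). The repressor Ahrr (log2 fold change −1.99, SE 0.83, edgeR adjusted p = 0.0931) and the target Nqo1 (−0.56, SE 0.29, edgeR adjusted p = 0.178) did not pass the test in that comparison, and neither did the partner Arnt, with tissue means of 10.5 to 14.1 TPM (0.00, SE 0.12, edgeR adjusted p = 0.987). Nqo1 had 992 ± 555 TPM (SD, n = 3) in the fBM-MSCs. There it was higher than in the A-MSCs by 1.22 on the log2 scale (SE 0.35, edgeR adjusted p = 0.0157) and than in the P-MSCs by 1.25 (SE 0.35, edgeR adjusted p = 0.0115). The vBM-MSCs exceeded every other tissue in Ahr and Tiparp, with an edgeR adjusted p of at most 0.0391, whereas the fBM-MSCs exceeded every other tissue in Aldh3a1.

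**Figure D4:**
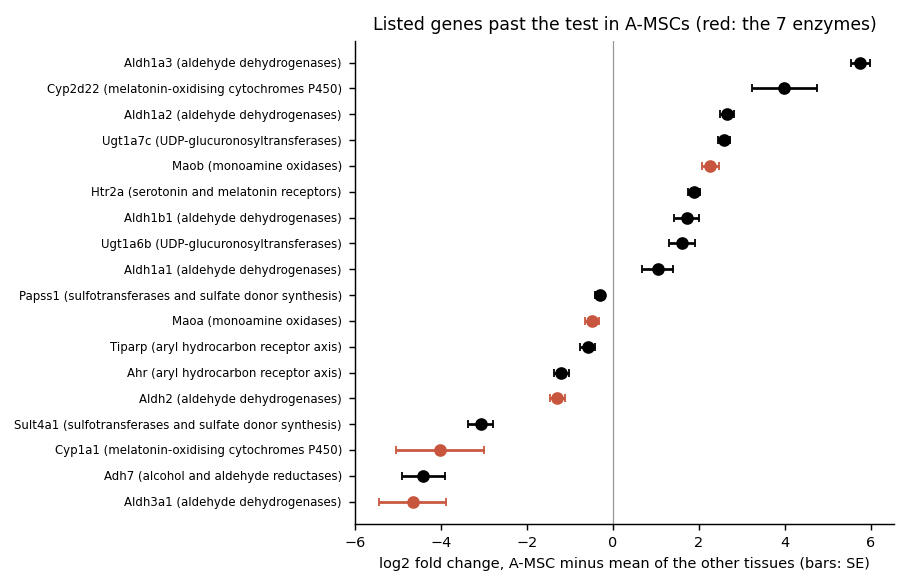
Log2 fold change of the 18 listed genes that passed edgeR's test (y axis) in A-MSCs against the mean of the other 3 tissues (x axis), with SE as bars and the 7 enzymes in red. Of the 18, 9 were higher and 9 lower in the A-MSCs, from Aldh3a1 at −4.66 to Aldh1a3 at 5.76, whereas limma on log2(TPM + 1) called 8 higher and 15 lower. Of all genes called, 53.4% were higher in the A-MSCs by edgeR and 34.6% by limma.

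Most genes that make, carry or sense these amines were too low for the test: 6 of 28 entered it. Of 8 synthesis genes only Gch1, which makes the cofactor of the hydroxylases, entered the test, with a mean of at most 7.25 TPM. It was not called in A-MSCs against the mean of the others (edgeR adjusted p = 0.344). Gch1 was lower in the P-MSCs than in the A-MSCs by 1.02 on the log2 scale (SE 0.35, edgeR adjusted p = 0.0453). It was also lower there than in the fBM-MSCs, by 0.98 (SE 0.35, edgeR adjusted p = 0.0376). The vBM-MSCs exceeded the P-MSCs by 0.95 without passing the test (edgeR adjusted p = 0.0724). Neither did fBM-MSCs against A-MSCs pass it (−0.04, edgeR adjusted p = 0.942). The serotonin-forming hydroxylases Tph1 and Tph2, the decarboxylase Ddc and the melatonin-forming Aanat and Asmt were each under 1 TPM on average in every tissue. Of the transporters, Slc18a2, which loads vesicles, had means of up to 2.23 TPM, and Slc29a4, a plasma membrane monoamine transporter, reached 1.74 TPM in the fBM-MSCs. Slc29a4 was higher in the fBM-MSCs than in the A-MSCs by 2.61 on the log2 scale (SE 0.70, edgeR adjusted p = 0.0113), and Slc18a2 was called in no pair of tissues. The serotonin transporter Slc6a4 was at most 0.20 TPM as a tissue mean. Of the receptors, Htr2a had 10.6 ± 1.86 TPM in the A-MSCs (SD, n = 3) and 11.5 ± 1.30 TPM in the P-MSCs (SD, n = 3), against 1.53 and 1.79 TPM in the fBM-MSCs and vBM-MSCs (log2 fold change in A-MSCs against the mean of the others 1.88, SE 0.14, edgeR adjusted p = 6.24e-06). Htr1b, with tissue means of 2.10 to 5.19 TPM, and Htr2b, with means of up to 1.08 TPM, did not pass the test. The melatonin receptors Mtnr1a and Mtnr1b were at 0 in all 11 libraries.

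Chromatin accessibility could be described for 5 of the 7 genes, since the peak lists cover chromosomes 1 to 19 and Maoa and Maob are on X. Each tissue has a single list from pooled reads, so no difference between lists has a replicate check. Summits with a −log10 q of at least 7, the threshold of the study, were counted within 1 kb of a transcription start. In the fBM-MSCs, 4 of the 5 genes had such a summit (Aldh2, Aldh3a1, Cyp1a1 and Cyp1b1), in the vBM-MSCs 3 (not Cyp1a1), and in the A-MSCs and P-MSCs 2 (Aldh2 and Cyp1b1). Of all genes tested on those chromosomes, 87.1%, 89.0%, 89.6% and 88.8% had such a summit in the fBM-MSCs, vBM-MSCs, A-MSCs and P-MSCs. Of all annotated genes there, which include Sult1a1 and others too low for the test, 50.7%, 51.6%, 52.6% and 51.7% did. Over the annotated genes with such a summit, the median of the highest fold enrichment was 13.6, 15.1, 15.5 and 16.2 in the same order.

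At Aldh3a1, a summit about 0.27 kb before the start had a fold enrichment of 7.0 in the fBM-MSCs and 8.5 in the vBM-MSCs. In the P-MSCs it was listed at 4.8-fold with a −log10 q of 5.41, below the threshold, and the A-MSC list held none within 1 kb. A second summit, 1.96 and 1.97 kb before the start, was listed at 7.0-fold in the fBM-MSCs and 10.3-fold in the vBM-MSCs and in neither other tissue. A summit 7.38 to 7.42 kb before the start, within the neighbouring gene Gm42080, was at 8.1-fold in both fBM-MSCs and P-MSCs and at 4.8-fold in the A-MSCs. A weaker one 0.71 kb before the start, at 4.0-fold and a −log10 q of 3.75, was in the fBM-MSC list alone. The summits above the threshold within 2 kb of the start were thus listed in the tissues where the transcript was plain, and the order of the marrow tissues was opposite: the vBM-MSCs had the higher summits and the fBM-MSCs the higher TPM. The vBM-MSC list also had the higher median over all annotated genes with a promoter summit.

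At Aldh2, summits above the threshold lay on both sides of the start in all 4 tissues, and the highest of each tissue there was 11-fold in the fBM-MSCs, 16.9-fold in the vBM-MSCs, 10.3-fold in the A-MSCs and 14.3-fold in the P-MSCs. An intronic summit 9.44 to 9.55 kb after the start was higher still, at 19.5-fold, 22.1-fold, 17.3-fold and 16.6-fold in the same order. The fBM-MSCs, which had the most Aldh2 transcript, did not have the highest summit at either place. Their list also had the lowest median promoter summit of the 4 over all annotated genes.

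At Cyp1b1, the upstream summit whose sequence is given above lay 0.79, 0.69, 0.84 and 0.85 kb before the start in the fBM-MSCs, vBM-MSCs, A-MSCs and P-MSCs, with a fold enrichment of 23.9, 17.3, 14.3 and 18.8. A summit 5.83 to 5.84 kb past the end of the gene was listed at 13.6-fold, 26.1-fold, 16.9-fold and 19.9-fold. The fBM-MSCs were thus highest at the upstream summit and lowest at the downstream one. Cyp1a1 had a summit in its first exon, at the upstream start, above the threshold in the fBM-MSCs only, at 5.5-fold and a −log10 q of 7.14, just over the threshold. The Cyp1a1 sequence printed above belongs to the downstream start instead. Within 1 kb of that start no list held a summit above the threshold, and only the vBM-MSC list held a weaker one (3.7-fold, −log10 q of 2.97). The summits nearest the upstream start in the vBM-MSCs (3.7-fold) and P-MSCs (4.0-fold), the tissues with the most Cyp1a1 transcript, were below the threshold. Sult1a1 had a summit in its first exon in the vBM-MSC list alone, at 4.8-fold and a −log10 q of 5.36, below the threshold.

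**Figure D5:**
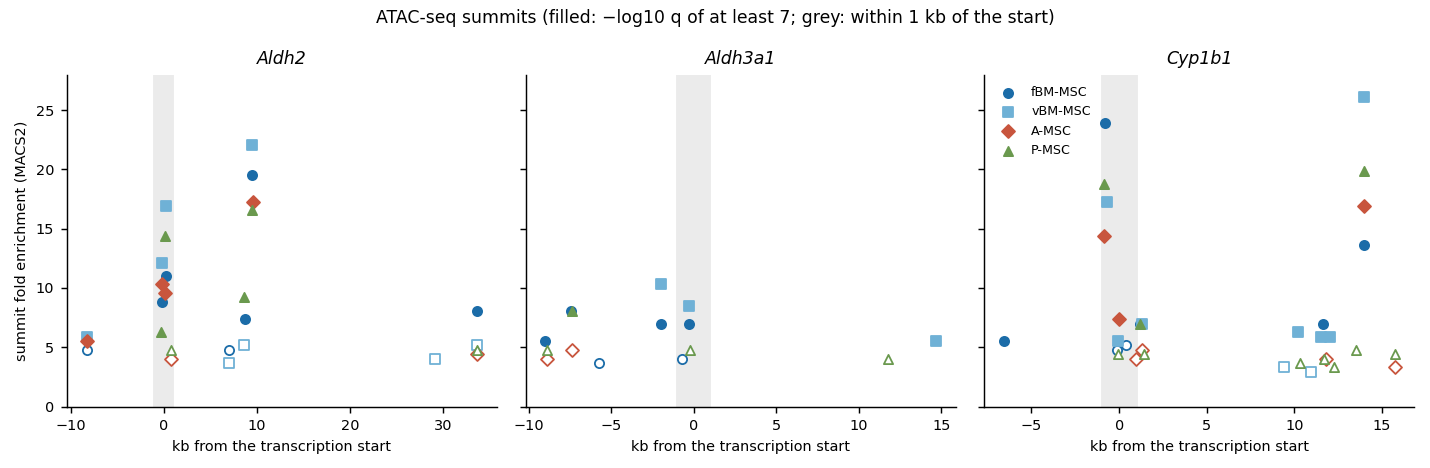
Fold enrichment of ATAC-seq summits (y axis) by distance from the transcription start (x axis, kb, along the gene) at Aldh2, Aldh3a1 and Cyp1b1. Filled symbols have a −log10 q of at least 7, and the grey band marks 1 kb to each side of the start. Aldh3a1 has filled symbols within 2 kb of its start from the fBM-MSCs and vBM-MSCs alone.

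For the 6 genes with a mean of at least 1 TPM, the genes with the most similar profile were sought by Pearson's r of log2(TPM + 1) over the 11 libraries, among 10952 genes. The points fall into 4 tissues, so a high r mainly restates the order of the tissues. Maob was followed most closely by Soat1 (r = 0.979), Ror1 (0.974) and Ms4a4d (0.973), and Maoa by Vnn1 (0.978), Scn3b (0.975) and Cyp26b1 (0.971). Aldh2 was closest to Gaa (0.992), Podxl2 (0.986) and Orai2 (0.984), and Aldh3a1 to Ccdc74a (0.989), Epdr1 (0.984) and Hsf4 (0.983). Cyp1b1 was closest to Taz (0.984), Ephb6 (0.956) and Foxo1 (0.954), and Cyp1a1 to Obsl1 (0.954), Col11a1 (0.948) and Mettl2 (0.944).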

How the data were processed

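RNA-seq and ATAC-seq values of cultured mouse MSCs were reanalysed from the processed files, per the labels made with RSEM, Trim Galore, Bowtie, Picard, bedtools and MACS2 on mm10. The authors aligned paired RNA-seq reads with STAR inside RSEM, and the deposited expected counts are RSEM's estimates per gene, not normalized. The authors' TPM and FPKM values are the same estimates after RSEM's scaling for transcript length and depth. For ATAC-seq, the authors trimmed and uniquely aligned the reads, removed duplicates, shifted reads for the transposase and called peaks with MACS2. The deposited fold enrichment and −log10 q of each summit come from that run on pooled reads of a tissue. The deposited display score was not used. Software versions are not given in the sources used here.

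Expected counts were rounded (those of the 7 enzymes were whole within 0.005). Genes reaching 1 CPM in 2 or more libraries entered a TMM-scaled quasi-likelihood F test (edgeR 4.0.16, R 4.3.3) at a Benjamini-Hochberg adjusted p under 0.05. Libraries ranged from 19569650 to 40517739 expected counts. The mice behind the libraries are not matched to their numbers in the sources used here, so libraries were treated as independent. Alternatives were DESeq2 1.42.0, limma 3.58.1 on log2(TPM + 1) and log2(TPM + 0.1), RLE size factors, no filter, a replicate block, only the tissues compared, and each library left out. The edgeR fit was tested on simulated data. A fold against tissues without counts used a floor of 3 counts over the group. Python 3.11.15, pandas 2.3.3, numpy 2.4.6 and matplotlib 3.10.9 made the other tables and figures.

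The members, lists and tests were chosen with earlier results of these data known. The text names the 7 enzymes, listed genes called in A-MSCs against the mean of the others at an absolute log2 fold change of at least 1, the aryl hydrocarbon receptor genes, synthesis, transport and receptor genes at a mean of at least 1 TPM in a tissue, and the 3 genes closest in profile to each enzyme. Others are named as examples. No RNA-seq values were used for vBM-MSC replicate 3.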

Additional observations from a re-analysis of the deposited data

How the results depend on the processing

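Fitting only the 2 tissues compared left 1 of the 6 enzymes called between fBM-MSCs and vBM-MSCs (Aldh3a1), against 3 in the fit of all libraries (2.53% and 12.8% of all genes), and gave 4 instead of 2 between A-MSCs and P-MSCs (Maoa and Cyp1b1 added), where it called 44.7% and 30.9% of all genes. Leaving out each library in turn gave 1 to 3 calls between fBM-MSCs and vBM-MSCs, the fewest without vBM-MSC replicate 1 (4.9% of all genes), and 3 to 6 calls in A-MSCs against the mean of the others, the fewest without A-MSC replicate 2 (21.2% of all genes, 29.9% with it). The direction of Aldh3a1 between A-MSCs and P-MSCs, which had 15 and 12 counts in all, turned from 0.47 to −0.07 with limma on log2(TPM + 0.1), to −0.09 without P-MSC replicate 3 and to −2.46 without A-MSC replicate 2, and ranged from −2.46 to 1.05 with a library left out. Of 933 values of single genes under an alternative, 860 kept their direction and side of the threshold, 58 lost a call, 12 gained one and 3 reversed, those of Aldh3a1 just given. Limma on log2(TPM + 1) and log2(TPM + 0.1) shifted the median of all genes by up to 0.15 and 0.19 on the log2 scale, other settings by at most 0.05. The mean log2 ratio of Maoa to Maob in the P-MSCs moved from 2.78 to 3.04 with a pseudocount of 0.1 and to 2.69 with FPKM. With a −log10 q of at least 20, 2 of the 5 genes covered by the peak lists had a promoter summit in the fBM-MSCs. Of all genes tested there 63.61% did, and of all annotated genes 35.14%. With all summits listed, 5 did in the vBM-MSCs and 4 in the P-MSCs, beside 93.71% and 93.15% of all genes tested (57.83% and 57.4% of all annotated genes). Within 500 bp of a start 1 did in the P-MSCs, beside 87.3% of all genes tested (49.55% of all annotated genes). Of the listed pathway genes, 9 were higher and 9 lower in A-MSCs than the mean of the others, against 8 and 15 with limma on log2(TPM + 1), 8 and 14 on log2(TPM + 0.1), 9 and 12 in DESeq2, and 7 and 5 without A-MSC replicate 2. Of all genes called, 53.4% were higher by edgeR, 34.6% and 34.7% in these limma fits and 50.9% in DESeq2. Their totals and the other counts of enzymes called stayed within 1.5 times of the main ones.

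With a replicate block, 6 enzymes differed among the 4 tissues, and the calls of Maoa between fBM-MSCs and P-MSCs (adjusted p = 0.0537), of Cyp1a1 between fBM-MSCs and A-MSCs (adjusted p = 0.111) and of Cyp1b1 between vBM-MSCs and A-MSCs (adjusted p = 0.0605) were lost, all by edgeR. Same-numbered libraries had a mean correlation of deviations of 0.013 (−0.0279 to 0.125, over 15 pairs), so the numbers were not taken to pair the libraries. The cause of these changes was not tested. The vBM-MSC levels rest on 2 libraries, and the pooled peak lists give no value per replicate.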
